A study of Homo sapiens with 6 samples.

Results

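The nuclear genes of the mitochondrial respiratory chain were examined in 4 cell lines of atypical teratoid rhabdoid tumor (AT/RT), an embryonal cancer of the central nervous system in young children. Members were the genes on chromosomes 1 to 22 whose symbol is that of a subunit family of complex I (NDUFA, NDUFB, NDUFC, NDUFS and NDUFV genes), complex II (SDH), complex III (UQCR), complex IV (COX4 to COX8) or complex V (ATP5), without symbols of pseudogenes. This rule took 83 of 36532 genes, with 35 in complex I, 4 in complex II, 9 in complex III, 16 in complex IV and 19 in complex V. The rule used names and positions and no measured value. It left out 3 genes on the X or Y chromosome and 8 symbols that end in P and a number.

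Total RNA was sequenced from the CHLA lines 02, 04, 05 and 06, commercial lines grown in DMEM:F12 medium with EGF, bFGF and B-27. The labels name no treatment of any line, and none of the 6 libraries came from another kind of cell or from cells given SMARCB1, the chromatin remodeling subunit whose loss defines most AT/RT. CHLA 04 and CHLA 06 had 2 technical replicates each and the other 2 lines had 1 library each, so 6 libraries stood for 4 biological samples. No test between lines was possible, the spread between cultures of a line was not measured, and every statement on a line is about the culture that was sequenced.

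The respiratory chain passes electrons from NADH at complex I and from succinate at complex II through complex III to oxygen at complex IV. Complexes I, III and IV pump protons across the inner mitochondrial membrane, and complex V, the ATP synthase, uses the gradient to make ATP. Complex II is encoded wholly in the nucleus, while the other 4 also hold core subunits read from mitochondrial DNA, so both genomes supply the parts. Some subunits of complex IV come in isoforms that are used in different tissues.

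Levels are TPM, read counts divided by transcript length and scaled to the same total in every library, summed over the transcripts of a gene, so that they can be compared between genes. The libraries held 10265899 to 20520229 reads on transcripts, CHLA 04 replicate 1 being the shallowest, so that for a length of 1000 bases a single read stood for 0.117 to 0.236 TPM. SMARCB1 RNA was listed at 13.5 to 26.2 TPM in all 6 libraries, although the lines are described as lacking SMARCB1. Among the label markers, VIM, which encodes vimentin, was abundant in every library (4629 to 19464 TPM). VIM does not stand for the whole list of 6 markers, which had 7 gene entries. For 5 of the 7, the highest line was at least 2-fold above the lowest. Set against the mean of the other lines (log2), the median entry was lowest for CHLA 06, at -0.84, and highest for CHLA 05, at 0.10. Of 10 markers of blood, endothelium, fibroblasts and muscle, 3 reached a mean of 1 TPM. Summed over the 10 genes, CHLA 04 and CHLA 05 had 2.87 to 14.6 TPM, CHLA 02 had 414 TPM and CHLA 06 had 513 to 651 TPM, nearly all of it COL1A1, a collagen gene, and HBB was at 0 reads throughout. The part of these genes in the differences below was not tested. In RNA of whole cultures, fewer cells of a kind and less RNA per cell cannot be told apart.

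Sequences are shown for members named below, and the part of these sequences in the differences between lines was not tested. The first 2 are the promoters (250 bases before to 50 after the start, RefSeq, GRCh38.p14) of SDHD and COX6A1, which stood apart in CHLA 06. They lie at chr11:112086623-112086922 and chr12:120437863-120438162, both on the plus strand. Capitals mark the letters CCGGAAG of the ETS site, here on the opposite strand, and the NRF1 site (GCGC, A, any base, GCGC).
SDHD promoter: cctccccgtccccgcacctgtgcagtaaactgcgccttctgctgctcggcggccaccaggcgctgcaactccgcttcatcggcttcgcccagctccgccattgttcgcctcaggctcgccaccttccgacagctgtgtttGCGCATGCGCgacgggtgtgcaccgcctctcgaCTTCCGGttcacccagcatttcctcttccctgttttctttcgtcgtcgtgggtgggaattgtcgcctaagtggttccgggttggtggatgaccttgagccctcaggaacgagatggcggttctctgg
COX6A1 promoter: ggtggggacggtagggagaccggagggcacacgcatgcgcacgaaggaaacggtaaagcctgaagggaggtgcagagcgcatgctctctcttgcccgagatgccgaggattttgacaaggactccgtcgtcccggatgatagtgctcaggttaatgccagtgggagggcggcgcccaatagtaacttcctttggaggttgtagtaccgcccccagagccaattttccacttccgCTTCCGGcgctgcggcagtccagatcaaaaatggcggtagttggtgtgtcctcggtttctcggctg

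The other is a coding exon of ATP5A1, the alpha subunit of ATP synthase, at chr18:46089823-46089996 on the minus strand (hg38). Its last 66 bases, in capitals, belong to transcript ENST00000398752 and are left out of transcript ENST00000590665, whose exon is 108 bases long.
ATP5A1 exon: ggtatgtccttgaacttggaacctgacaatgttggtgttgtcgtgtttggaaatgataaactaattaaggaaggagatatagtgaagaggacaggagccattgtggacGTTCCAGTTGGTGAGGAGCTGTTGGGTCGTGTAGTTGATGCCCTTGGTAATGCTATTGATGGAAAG

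Nearly all members were expressed. Of the 83, 74 had a mean of at least 1 TPM over the 4 lines, and the other 9 did not. The 74 had a median mean level of 103 TPM, with ATP5B, the catalytic beta subunit of ATP synthase, highest at 619 TPM and ATP5S lowest at 13.9 TPM. ATP5S and ATP5SL carry the ATP5 name but are not subunits of the enzyme. The 83 genes together took 0.907 to 1.06% of all TPM in a library, from 46825 to 106959 reads.

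**Figure D1:**
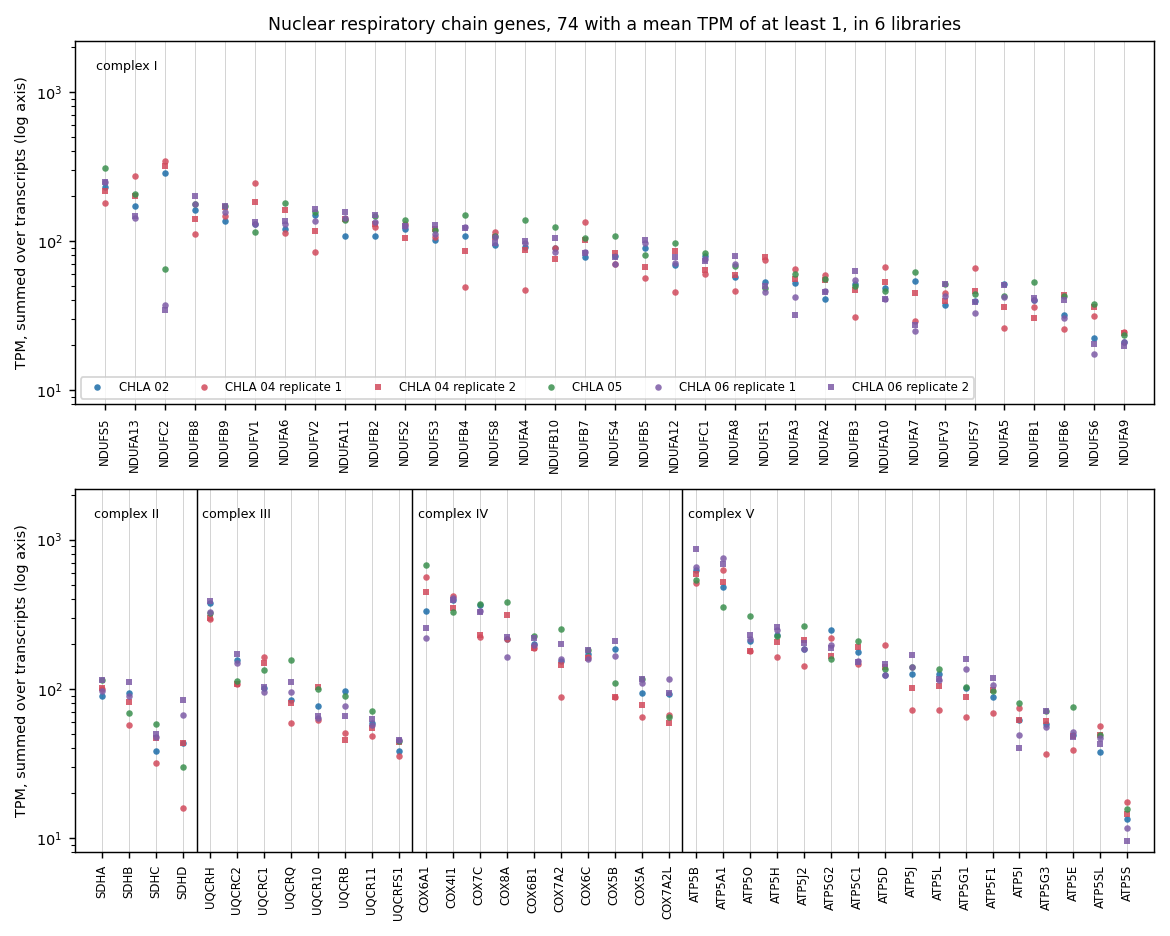
TPM of the 74 members with a mean of at least 1 TPM, on a log axis, in each of 6 libraries (points, coloured by line, with squares for the second technical replicate), ordered by complex and mean level. Most members lie within a narrow band across lines, while NDUFC2 runs from 34.4 to 343 TPM.

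The 9 members below 1 TPM were mainly isoforms of complex IV that serve muscle, lung or testis. COX4I2, COX6A2, COX7A1, COX7B2 and COX8C had 0 reads in all 6 libraries, which for COX4I2 allows at most 0.507 to 1.02 TPM at 3 reads, depending on the library. COX6B2, the testis form of subunit 6B, was at 0.398 TPM in CHLA 02, 0 in both CHLA 04 libraries, 0.909 TPM in CHLA 05 and 0.747 and 0.405 TPM in CHLA 06, from at most 11 reads. It made up at most 0.403% of the summed TPM of COX6B1 and COX6B2. ATP5L2 was also at 0 reads. UQCRHL, an intronless copy of UQCRH, and ATP5J2-PTCD1, a readthrough of neighbouring genes, were below 2 TPM in every library and share sequence with expressed genes. How the authors' program divided reads between such copies is not given in the sources used here.

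To compare lines, the log2(TPM + 1) of a line, averaged over its technical replicates, was set against the mean of the other 3. A gene was called higher or lower where the difference was at least 2-fold and no library of the line overlapped any library of the others. CHLA 02 had 0 of 74 members called higher, beside 1.67% of the 14827 genes with a mean of at least 1 TPM, and 0 called lower, beside 0.776%. In CHLA 04, 1 member was called higher (NDUFC2), beside 8.86% of all genes, and 0 lower, beside 8.59%. In CHLA 05, 0 members were called higher, beside 10.1% of all genes, and 0 lower, beside 4.42%. CHLA 06 had 1 member called higher (SDHD), beside 7.81%, and 2 lower (COX6A1 and NDUFC2), beside 13.7%.

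The highest line was at least 2-fold above the lowest for 10 of 74 members (13.5%), beside 49.5% of all genes. This count was chosen after the values had been seen. Among genes with a mean of at least 20 TPM the shares were 13.7% of 73 members and 39.0% of 8525 genes. The median member had a 1.52-fold range between lines and the median gene a 1.99-fold range. The 10 members were NDUFC2, NDUFA7, NDUFB4 and NDUFA4 under complex I names, SDHD, UQCRQ, COX6A1, COX7A2, COX5B and ATP5A1. NDUFA4, a gene of the complex I name series, is now placed in complex IV.

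Technical replicates set the precision. Members of CHLA 04 differed between replicates by a median of 0.29 (log2), the largest being SDHD at 1.40, and those of CHLA 06 by 0.14, the largest being COX8A at 0.45. The range of the 4 lines was wider than both technical differences for 65 of 74 members (87.8%), beside 85.3% of all genes.

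Direction was shared by many members. CHLA 05 was the highest line for 36 of 74 members and CHLA 04 the lowest for 37. These counts were not made over all genes. CHLA 05 lay above the mean of the other lines for 57 of 74 members, beside 8349 of 14827 genes. CHLA 04 lay below the mean of the other lines for 50 of 74 members, beside 6495 of 14827 genes. Against the mean of the other lines, the median member was at -0.08 (log2) for CHLA 02, at -0.19 for CHLA 04, at 0.21 for CHLA 05 and at 0.03 for CHLA 06. The value for CHLA 04 was -0.08 without its replicate 1 and -0.30 without its replicate 2. That for CHLA 06 lay between -0.01 and 0.08 when any 1 technical replicate was left out, so its sign was not fixed. All genes shifted as well, by a median of -0.03, 0.11, 0.09 and -0.16 in the same order. Relative to that shift, the median member was at -0.05 for CHLA 02, at -0.30 for CHLA 04, at 0.13 for CHLA 05 and at 0.19 for CHLA 06. Of 74 members, 55 lay at or below the median gene in CHLA 04 and 57 lay above it in CHLA 06. The sign relative to the median gene was the same under all 15 settings tried in CHLA 04, CHLA 05 and CHLA 06, and under 13 of 15 in CHLA 02. Across lines the differences are linked, since each line is part of the mean that the others are set against.

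**Figure D2:**
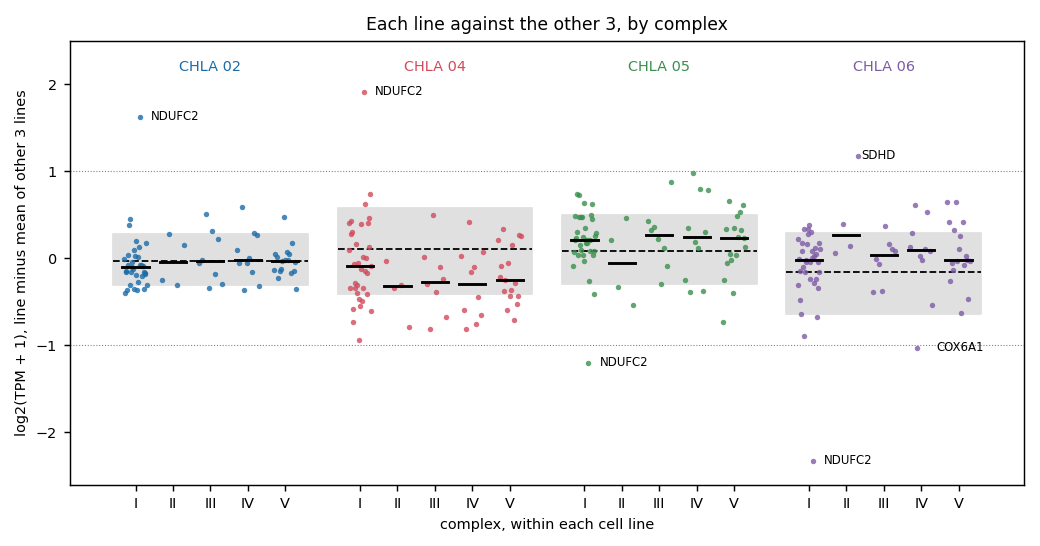
Difference of log2(TPM + 1) between a line and the mean of the other 3, for each of 74 members (points) by complex, with the median of each complex (solid bar), and the median (dashed) and quartiles (grey) of all 14827 genes. The medians of all 5 complexes lie below the dashed line in CHLA 04 and above it in CHLA 06, and the dotted lines mark a 2-fold difference.

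Base composition moved with the differences of CHLA 04. Over the 74 members, the GC content of the most abundant transcript ran from 36.4 to 69.3%, and the Spearman correlation with the difference of CHLA 04 from the other lines was 0.52, with 0.29 over all genes. The correlation over members was -0.44 for CHLA 02, -0.05 for CHLA 05 and -0.27 for CHLA 06, and over all genes it was -0.17, -0.05 and -0.14 in the same order. The 37 members with less GC had a median difference of -0.38 in CHLA 04 and the 37 with more GC a median of -0.002. Over all genes, the 7414 with less GC had a median of -0.09 in CHLA 04 and the 7413 with more GC 0.34. The median member thus lay below the median gene on both sides of the split. Median GC content was 48.5% for members and 49.1% for all genes. Between the 2 technical replicates of CHLA 04 the correlation with GC was -0.41 over members and -0.45 over all genes, so libraries of the same line also differed with base composition. In CHLA 06 the replicate difference had a correlation of 0.11. These genes share libraries and are not independent, and the part of GC content in the low level of members in CHLA 04 was not tested.

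Complex I, the largest complex and the entry of electrons from NADH, summed to 3201 TPM in CHLA 02, 3342 ± 83.7 TPM in CHLA 04, 3600 TPM in CHLA 05 and 3131 ± 134 TPM in CHLA 06 (SD of 2 technical replicates). The highest line was 1.15-fold above the lowest. These sums include NDUFC2, at 285 TPM in CHLA 02 and a mean of 331 TPM in CHLA 04. It was at 64.9 TPM in CHLA 05 and a mean of 35.8 TPM in CHLA 06. The order of lines depends in part on this gene, and sums without it were not made. NDUFS5 and NDUFA13 had the highest mean levels of the complex, 247 and 190 TPM, and NDUFS6 and NDUFA9 the lowest, 28.2 and 22.2 TPM. The 7 nuclear core subunits, which hold the flavin and the iron-sulfur clusters, summed to 688 to 816 TPM in a library. Of the 7, 0 were called in any line, beside 0.776 to 13.7% of all genes, depending on line and direction. NDUFV1, which binds NADH, was at 131 TPM in CHLA 02, 243 and 181 TPM in CHLA 04, 115 TPM in CHLA 05 and 130 and 133 TPM in CHLA 06. NDUFS1, which carries iron-sulfur clusters, was at 75.0 and 78.1 TPM in CHLA 04 and at 45.5 to 52.9 TPM in the other 4 libraries. NDUFV2 had the opposite order, with 83.8 and 116 TPM in CHLA 04 and 136 to 163 TPM elsewhere. Thus both CHLA 04 libraries were above all others for NDUFV1 and NDUFS1 and below all others for NDUFV2, by less than 2-fold against the mean of the other lines.

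NDUFC2, a small supernumerary subunit of the membrane arm, varied most. It was at 285 TPM in CHLA 02 (95% Wilson interval 277 to 293, counting error only), 343 and 320 TPM in CHLA 04, 64.9 TPM in CHLA 05 (61.0 to 69.2) and 37.2 and 34.4 TPM in CHLA 06, from 626 to 5066 reads. CHLA 02 and CHLA 04 thus formed a high pair and CHLA 05 and CHLA 06 a low one, with no overlap. CHLA 04 was 3.75-fold above the mean of the other lines and CHLA 06 was 5.01-fold below it, and the highest line was 9.03-fold above the lowest. Transcript ENST00000281031 held 82.7 to 98.4% of the gene's TPM in every library, so the difference was one of level and not of transcript.

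The gene lies on chromosome 11 (GRCh38, 78068304 to 78080219, minus strand), and its neighbours were examined after its values had been seen. Of 10 expressed genes within 250 kb, 5 were also called higher in CHLA 04 (GAB2, USP35, KCTD14, KCTD21 and NDUFC2-KCTD14), beside 8.86% of all genes. In CHLA 06, 2 were called lower (KCTD14 and NDUFC2-KCTD14), beside 13.7%, and in CHLA 05, 1 was called lower (USP35), beside 4.42%. KCTD14 was at 8.31 TPM in CHLA 02, 17.7 and 17.5 TPM in CHLA 04, 0.570 TPM in CHLA 05 and 0.162 and 0.147 TPM in CHLA 06, the same order of lines as NDUFC2. KCTD14 is annotated from 78015715 to 78080219 on the same strand, a span that takes in all of NDUFC2, and NDUFC2-KCTD14 is a readthrough of both, so that the 3 genes overlap and may share reads. The median neighbour differed by 1.07 (log2) in CHLA 04 and -0.82 in CHLA 06. What these neighbours share with NDUFC2 beyond position was not tested.

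Complex II, succinate dehydrogenase, joins the citric acid cycle to the chain. Its 4 genes summed to 265 TPM in CHLA 02, 238 ± 48.2 TPM in CHLA 04, 270 TPM in CHLA 05 and 330 ± 41.7 TPM in CHLA 06, a 1.39-fold range. SDHA, the flavoprotein with the active site, differed least, from 89.4 TPM in CHLA 02 to 114 TPM in CHLA 06 replicate 2. SDHB, the iron-sulfur subunit, was at 93.9 TPM in CHLA 02, 56.8 and 81.3 TPM in CHLA 04, 68.5 TPM in CHLA 05 and 89.7 and 111 TPM in CHLA 06. SDHC, a membrane anchor, lay between 31.6 and 57.9 TPM.

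SDHD, the other membrane anchor, was at 43.6 TPM in CHLA 02 (39.6 to 48.0), 15.8 and 43.3 TPM in CHLA 04, 30.0 TPM in CHLA 05 (26.6 to 33.8) and 66.4 and 83.8 TPM in CHLA 06. Both CHLA 06 libraries were above the other 4, and the line was 2.25-fold above the mean of the others. The CHLA 04 replicates differed more than any other member's, from 87 and 395 reads, and without replicate 1 of CHLA 04 the difference of CHLA 06 fell from 1.17 to 0.94 (log2), which is under 2-fold. The call therefore rests on the low value of that library. Among 15 expressed genes within 250 kb of SDHD, 1 was called higher in CHLA 06 (CRYAB), beside 7.81% of all genes. In CHLA 04, 4 were called lower (CRYAB, C11orf1, DIXDC1 and DLAT), beside 8.59%, and in CHLA 05, 3 were called higher (DIXDC1, TIMM8B and IL18), beside 10.1%. DLAT encodes a part of the pyruvate dehydrogenase complex.

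**Figure D3:**
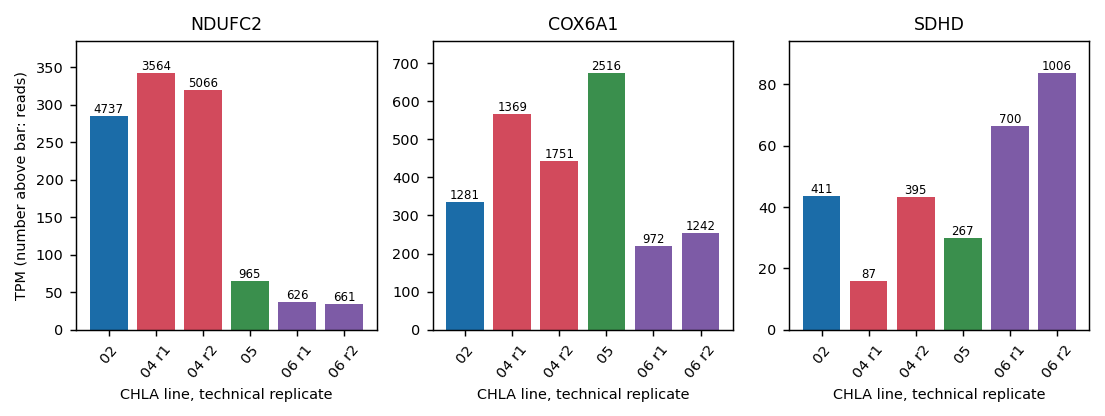
TPM of the 3 members called in any line, in each of 6 libraries (bars, r1 and r2 for technical replicates), with the number of reads above each bar. NDUFC2 separates CHLA 02 and CHLA 04 from the other lines, COX6A1 is lowest and SDHD highest in CHLA 06.

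Complex III hands electrons from ubiquinol to cytochrome c. Its summed level was 988 TPM in CHLA 02, 852 ± 44.0 TPM in CHLA 04, 1029 TPM in CHLA 05 and 961 ± 70.1 TPM in CHLA 06, a 1.21-fold range. UQCRH, the hinge protein that meets cytochrome c1, was the most abundant with a mean of 338 TPM. UQCRFS1, the Rieske iron-sulfur protein, was the least abundant of the expressed 8 at 41.9 TPM and varied little, from 35.2 to 45.7 TPM. The core proteins UQCRC1 and UQCRC2 ran in opposite directions. UQCRC1 was at 100 TPM in CHLA 02, 164 and 148 TPM in CHLA 04, 135 TPM in CHLA 05 and 94.7 and 103 TPM in CHLA 06, whereas UQCRC2 was at 155 TPM, 108 and 108 TPM, 113 TPM, and 150 and 172 TPM. UQCRQ, a small supernumerary subunit, was highest in CHLA 05 at 156 TPM, with 59.1 to 111 TPM in the other 5 libraries, a 2.25-fold range of lines.

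Complex IV, cytochrome c oxidase, passes electrons to oxygen. Its summed level was 2199 TPM in CHLA 02, 2066 ± 19.9 TPM in CHLA 04, 2706 TPM in CHLA 05 and 2122 ± 144 TPM in CHLA 06. CHLA 05 was thus 1.31-fold above the lowest line and above every other library, the next being at 2224 TPM. COX6A1 and COX4I1 had the highest means, 438 and 375 TPM. COX5A and COX7A2L had the lowest means of the expressed 10, 98.8 and 81.0 TPM.

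COX6A1, the widespread form of subunit 6A, varied most in complex IV. It was at 335 TPM in CHLA 02 (317 to 354), 566 and 444 TPM in CHLA 04, 674 TPM in CHLA 05 (648 to 701) and 220 and 254 TPM in CHLA 06. The CHLA 06 libraries were below the other 4, at 2.04-fold under the mean of the other lines, and CHLA 05 was 1.97-fold above it. The call in CHLA 06 stood just past the threshold and was lost, at -0.97 and -0.93 (log2), without CHLA 04 replicate 1 or without CHLA 06 replicate 1. COX4I1, the widespread form of subunit 4, which takes part in the control of the enzyme by ATP, stayed within 328 to 416 TPM in all libraries. COX5B, a subunit near the matrix side, was higher in CHLA 02 and CHLA 06 than in the other lines, with 184 TPM in CHLA 02 and 165 and 209 TPM in CHLA 06 against 87.7 and 88.4 TPM in CHLA 04 and 110 TPM in CHLA 05.

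COX7A2 and COX7A2L encode related proteins, the second of which serves in the assembly of supercomplexes. Of their summed TPM, the share of COX7A2 was 62.6% for CHLA 02, 56.8 and 71.1% for the CHLA 04 replicates, 79.6% for CHLA 05 and 57.7 and 67.9% for those of CHLA 06. CHLA 05 was the highest, but the replicates of a line differed by up to 14.3 percentage points, which is close to the 17.0 points between lines. COX8A, the widespread form of subunit 8, was at 381 TPM in CHLA 05 and at 163 to 315 TPM in the other libraries.

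Complex V summed to 2938 TPM in CHLA 02, 2753 ± 99.7 TPM in CHLA 04, 2957 TPM in CHLA 05 and 3375 ± 187 TPM in CHLA 06, the highest line being 1.23-fold above the lowest. Both CHLA 06 libraries, at 3243 and 3508 TPM, were above all others. The sum does not stand for each gene. Of the 17 expressed genes of the complex, 8 lay above the mean of the other lines in CHLA 06. The median of the 17 was -0.02 (log2), beside -0.16 over all genes, and 14 of them lay above the median gene. The 5 genes of the F1 head summed to 1740 and 1903 TPM in CHLA 06 and to 1307 to 1519 TPM elsewhere. ATP5B was at 625 TPM in CHLA 02, 509 and 584 TPM in CHLA 04, 537 TPM in CHLA 05 and 660 and 872 TPM in CHLA 06. ATP5A1 was at 480 TPM in CHLA 02, 628 and 523 TPM in CHLA 04, 351 TPM in CHLA 05 and 751 and 685 TPM in CHLA 06, so CHLA 05 had the least and CHLA 06 the most. The gamma, delta and epsilon subunits moved otherwise. ATP5C1 and ATP5E were highest in CHLA 05, at 208 and 75.1 TPM, and ATP5D was highest in CHLA 04 replicate 1, at 197 TPM.

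The ring of c subunits, which turns as protons pass, is read from 3 genes that encode the same mature protein. Of their summed TPM, ATP5G2 held 60.9% for CHLA 02, 68.4 and 52.5% for the CHLA 04 replicates, 47.8% for CHLA 05 and 50.9 and 45.1% for those of CHLA 06. ATP5G1 held 24.9%, 20.2 and 28.3%, 30.9%, and 34.8 and 38.0% in the same order. CHLA 06 therefore had the largest share of ATP5G1 in both its libraries, while the replicates of CHLA 04 differed by 15.9 points for ATP5G2, which is more than the 13.1 points between lines.

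Transcript use within a gene was compared after the values had been seen. A transcript's share of its gene moved by at least 25 percentage points between lines in 15 of 74 members (20.3%). The same held for 23.5% of all genes. In 12 of the 74 (16.2%) the move was also more than 2 times the largest technical difference, beside 12.8% of all genes. Some of these shares rest on few reads, such as 1 read of ENST00000512088 of NDUFA2 and 3 reads of ENST00000553514 of NDUFB1 in CHLA 04 replicate 1. ATP5A1 moved most. The transcript with the short exon, ENST00000590665, held 2.99% of the gene's TPM for CHLA 02, 29.7 and 40.6% for the CHLA 04 replicates, 2.44% for CHLA 05 and 51.9 and 50.5% for those of CHLA 06, from 100 to 5412 reads. ENST00000398752, which has the 66 further bases and a longer 3′ end, held 31.1%, 9.83 and 13.3%, 37.6%, and 9.13 and 13.4%. The lines thus fell into a pair with little of the short form, CHLA 02 and CHLA 05, and a pair with much of it.

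The capitals in the exon printed above begin with GT, the pair of bases with which nearly all introns begin, and the intron after the full exon begins with GT too. The 66 bases are 22 codons with no remainder. Reads were assigned to transcripts by the authors' program, the 2 transcripts also differ at their ends, and reads across the junction itself were not counted here. Shares of NDUFS5 also moved, with ENST00000372969 at 25.8% of the gene in CHLA 05 and at 0.370 to 2.08% in the other 5 libraries. This transcript has 548 bases and ENST00000372967 has 544, each in 3 exons over the same span. The exons of NDUFS5 were not examined. COX4I1 shows the limit, since ENST00000253452 held 17.6% in CHLA 04 replicate 1 and 51.8% in replicate 2 of the same line.

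**Figure D4:**
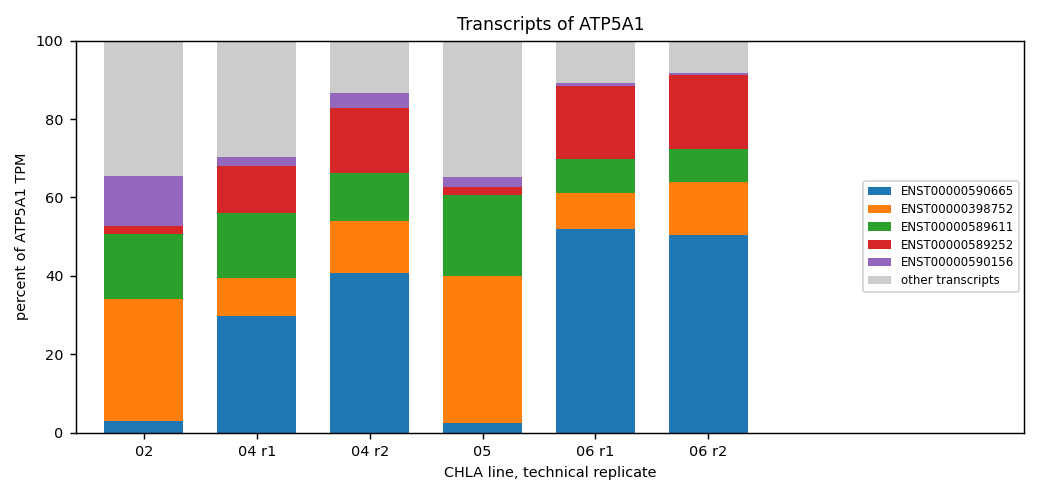
Share of each transcript in the TPM of ATP5A1 (percent, stacked bars) in 6 libraries, for transcripts with at least 10% in any library. The short-exon transcript ENST00000590665 is at 2.99 and 2.44% in CHLA 02 and CHLA 05 and at 29.7 to 51.9% in CHLA 04 and CHLA 06.

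The promoters of members were searched for short motifs on both strands, each motif counted by itself. Of the 74 members, 60 had a promoter in the RefSeq table, with 73 promoters in all. NDUFC2 was not among them. The NRF1 letters (GCGC, A, any base, GCGC), bound by nuclear respiratory factor 1, stood in 20.5% of the 73, in 5.78% of all 35116 promoters and in 9.71% of the 16475 promoters of the expressed genes. The ETS letters CCGGAAG, read by GABP among others, stood in 27.4% of member promoters, 10.3% of all and 16.3% of those of expressed genes. The YY1 letters AAGATGGC stood in 17.8%, 2.89% and 4.54%. GC boxes (GGGCGG) stood in 61.6%, 45.0% and 65.6%, CCAAT in 31.5%, 34.6% and 34.8%, and TATAAA in 6.85%, 11.5% and 6.49%. By complex, the NRF1 letters were in 6 of 36 promoters (I), 2 of 3 (II), 4 of 7 (III), 0 of 11 (IV) and 3 of 16 (V). CCGGAAG was in 4 of 36, 2 of 3, 3 of 7, 5 of 11 and 6 of 16 in the same order. The YY1 letters were in 7 of 36, 1 of 3, 1 of 7, 0 of 11 and 4 of 16. The SDHD promoter held both NRF1 and ETS letters and the COX6A1 promoter held ETS letters. These are matches of letters and not binding sites.

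The mitochondrial genome's own 13 subunit genes were compared with the nuclear members, since both are needed for complexes I, III, IV and V. Their summed share of TPM was 8.44% for CHLA 02, 1.83 and 3.27% for the CHLA 04 replicates, 4.78% for CHLA 05 and 6.92 and 8.67% for those of CHLA 06, against 0.907 to 1.06% for the nuclear genes. The ratio of mitochondrial to nuclear sums was 2.02 and 3.46 in CHLA 04 and 8.80 in CHLA 02. Mitochondrial RNA thus spanned 3.31-fold between lines while nuclear RNA spanned 1.14-fold. The CHLA 04 replicates differed 1.78-fold in the former, so part of that span was between libraries of the same line.

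**Figure D5:**
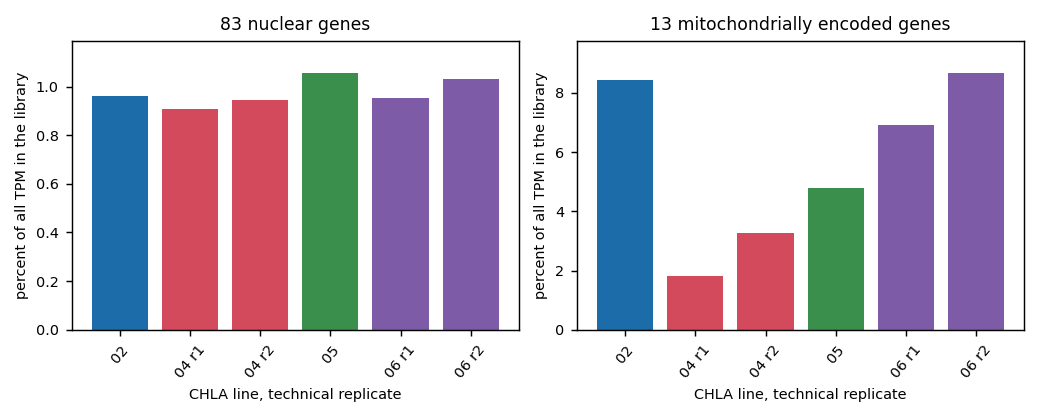
Percent of all TPM in a library held by the 83 nuclear genes (left) and by the 13 mitochondrially encoded subunit genes (right), in 6 libraries. The nuclear share lies between 0.907 and 1.06%, and the mitochondrial share between 1.83 and 8.67%, lowest in both CHLA 04 libraries.

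By the call rule, 11 of the 13 mitochondrial genes were lower in CHLA 04, beside 8.59% of all genes, and 2 (MT-CO1 and MT-ND3) were higher in CHLA 02, beside 1.67%. The 13 genes share a genome and the same libraries, so their calls are not independent. MT-CO1, the catalytic subunit of complex IV, was at 19062 TPM in CHLA 02, 4537 and 6434 TPM in CHLA 04, 8488 TPM in CHLA 05 and 14970 and 15773 TPM in CHLA 06. MT-ND6, the gene on the other strand, had a different course, with 445 TPM in CHLA 02, 331 and 438 TPM in CHLA 04, 368 TPM in CHLA 05 and 205 and 287 TPM in CHLA 06. MT-ATP8 was called higher in CHLA 05 and lower in CHLA 06, at 455 TPM in the first and 35.6 and 18.1 TPM in the second, but it overlaps MT-ATP6 and the division of their reads is not known. The remaining 9 ran from CHLA 04 at the bottom to CHLA 02 or CHLA 06 at the top.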

How the data were processed

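RNA-seq libraries of 4 AT/RT cell lines were analysed. Per the labels, total RNA was made into stranded libraries and sequenced as paired reads of 125 bases, and the submitters' processing notes name CASAVA 1.8.2, FastQC, Trimmomatic and GRCh38. The values deposited by the authors are TPM of each transcript of Ensembl release 82, 1 file for each of 6 libraries, from default mapping in CLCbio Genomics Workbench. The 6 files of repeat elements were not used. Multiplied by the annotated length, 99.6 to 100% of TPM values were whole multiples of the value of 1 read within a tolerance of 0.05, which gave the reads and shows that lengths were not shortened by fragment size.

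TPM was summed by gene. Genes with a mean of at least 1 TPM over the 4 lines were compared on log2(TPM + 1), technical replicates being averaged first, and a call needed a 2-fold difference with no overlap. No test was made, since each line had 1 biological sample. Intervals are Wilson binomial intervals at the 95% level, for a gene's reads as a share of all reads in the library, and floors are 3 reads. Both cover counting error only. Named were members called in any line, the 2 highest and 2 lowest per complex, and members of lists of core subunits and isoforms. From other lists, the 3 genes with the widest range of lines were named, with all mitochondrial subunits. Other genes were named after their values were seen. Members and lists were chosen with earlier results of these data known. GC content was read from hg38 over the exons given in the files. Python 3.11.15, numpy 2.4.6, pandas 2.3.3 and scipy 1.17.1 were used. Reading of counts and calls was tested on simulated data. Alternatives were other pseudocounts (0.1 and 2), filters (none, 5 and 20 TPM), scalings, the most abundant transcript alone, the higher technical replicate, a 1.5-fold threshold and leaving out each technical replicate. The filter at 20 TPM, the range of lines, neighbours, GC content and transcript shares were added after seeing the data.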

Additional observations from a re-analysis of the deposited data

How the results depend on the processing

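Of 250 alternative values for 22 results, 197 stayed within the spread of technical replicates, or within 1.5 times for counts. That spread was itself taken from leaving out 1 technical replicate at a time, and those values are among the 250. Counts of 0 that stayed at 0 are among the 197 as well. The 197 is therefore not an independent measure of stability. The cause of the changes past these limits was not tested, beyond what a setting does by construction. With a 1.5-fold threshold, which admits more genes, 3 members were higher and 12 lower in CHLA 04 (17.0 and 13.4% of all genes), 10 higher and 1 lower in CHLA 05 (15.7 and 7.90%), and 3 higher and 6 lower in CHLA 06 (12.2 and 21.2%). Quantile normalization gave 1 higher in CHLA 02, 0 higher and 1 lower in CHLA 04, 1 lower in CHLA 06, and a median difference of -0.36 (log2) in CHLA 04. Median-of-ratios scaling gave 1 lower in CHLA 04, 1 lower in CHLA 06, a median of 0.17 in CHLA 06, and folds between lines of 1.10 (complex I), 1.29 (III), 1.33 (IV) and 1.41 (V). TPM over chromosomes 1 to 22 gave 1 lower in CHLA 04, 1 lower in CHLA 06, and folds of 1.12 (I), 1.34 (IV) and 1.29 (V). With the most abundant transcript alone, 5 members were lower in CHLA 04, 1 higher in CHLA 05, 4 higher in CHLA 06 and 17 had a 2-fold range, the median in CHLA 04 was -0.35, folds were 1.08 (I), 1.68 (II), 1.41 (IV) and 1.41 (V), and shares ranged over 22.7 (ATP5G1), 21.7 (ATP5G2), 10.3 (ATP5G3) and 23.3 (COX7A2) percentage points. With the higher technical replicate, 1 member was lower in CHLA 06 and the median in CHLA 04 was -0.047.

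Leaving out 1 technical replicate gave 0 to 4 members lower in CHLA 04 (4 without replicate 2), 0 to 1 higher in CHLA 05, 0 to 1 higher and 1 to 2 lower in CHLA 06, and 7 to 14 with a 2-fold range. Folds ran from 1.12 to 1.19 (I), 1.24 to 1.62 (II), 1.17 to 1.25 (III), 1.30 to 1.34 (IV) and 1.18 to 1.27 (V), and share ranges from 10.6 to 16.2 (ATP5G1), 13.1 to 20.6 (ATP5G2), 7.08 to 9.96 (ATP5G3) and 17.0 to 22.8 (COX7A2) points. The called difference of NDUFC2 in CHLA 06 held under 14 of 14 alternatives, that in CHLA 04 under all but quantile normalization (1.68, with overlap), SDHD under all but 1 (0.94) and COX6A1 under 8 of 14. Over all genes, calls in CHLA 06 were 7.81% higher and 13.7% lower, and 9.23 and 8.88% after quantile normalization. No paired analysis was possible because no test was made and each line had 1 biological sample. Members at or near 0 reads and shares of minor transcripts in CHLA 04 replicate 1, the shallowest library, rest on few reads. No test of depth was made.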

Other observations

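Other genes that serve the respiratory chain were described from lists chosen with earlier results of these data known. Of 47 assembly factors, all with a mean of at least 1 TPM, 0 were called in CHLA 02, CHLA 04 or CHLA 06. The shares of all genes called in those lines were 0.776 to 13.7%, depending on line and direction. In CHLA 05, 2 of the factors were called higher, beside 10.1% of all genes. They were COX17, a copper chaperone of complex IV, at 36.8 TPM in CHLA 05 and 12.1 to 16.7 TPM in the other 5 libraries, and COX20, an assembly factor of the same complex, at 148 TPM in CHLA 05 and 35.2 to 77.4 TPM elsewhere. TMEM70, which serves the assembly of ATP synthase, was at 61.2 TPM in CHLA 02, 19.6 and 36.1 TPM in CHLA 04, 27.9 TPM in CHLA 05 and 54.4 and 54.7 TPM in CHLA 06. Of 14 genes of general mitochondrial content, 0 had a 2-fold range between lines, beside 49.5% of all genes.

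Of 16 tested regulators, 2 were called higher in CHLA 05 (NRF1 and POLG), beside 10.1% of all genes, 1 lower in CHLA 04 (MYC), beside 8.59%, and 3 lower in CHLA 06 (NRF1, POLG and MYCN), beside 13.7%. NRF1, the nuclear respiratory factor, was at 13.2 TPM in CHLA 02, 25.8 and 21.5 TPM in CHLA 04, 50.2 TPM in CHLA 05 and 11.1 and 11.8 TPM in CHLA 06. MYC was at 79.7 TPM in CHLA 02 and 94.1 and 72.1 TPM in CHLA 06, and at 0.612 to 1.44 TPM in CHLA 04 and CHLA 05. MYCN had the reverse split between CHLA 06, at 0.0497 and 0.0900 TPM, and CHLA 04 and CHLA 05, at 69.6 to 113 TPM, with 26.3 TPM in CHLA 02. PPARGC1A, a coactivator of mitochondrial biogenesis, was under the minimum, at 2.97 TPM in CHLA 05 and at most 0.216 TPM elsewhere. Of 6 subunits that the naming rule left out, 1 was called, NDUFA4L2, lower in CHLA 05 at 0.286 TPM against 1.26 to 3.99 TPM in the other libraries. That level is low, since 1 read in CHLA 05 stood for 0.153 TPM at a length of 1000 bases.

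Of 20 glycolysis genes, 10 had a 2-fold range between lines, beside 49.5% of all genes. In CHLA 02, 1 was called higher (1.67% of all genes), and in CHLA 04, 1 higher and 3 lower (8.86 and 8.59%). CHLA 05 had 2 called higher (10.1%), and CHLA 06 had 1 higher and 2 lower (7.81 and 13.7%). Only some of the called genes are named here. LDHA, which makes lactate, was called higher in CHLA 06 at 1495 and 1426 TPM, against 400 to 881 TPM in the other libraries. HK2, a hexokinase, was called higher in CHLA 04 and lower in CHLA 06, at 29.1 and 23.8 TPM in the first and 0.253 and 0.719 TPM in the second. ALDOC, an aldolase, was called lower in CHLA 04 at 2.95 and 1.90 TPM, with 42.1 to 80.9 TPM in CHLA 02 and CHLA 06. SLC16A3, a lactate transporter, was at 0 reads in both CHLA 04 libraries and at 3.24 TPM in CHLA 02. Of 8 tested genes of the hypoxia response, 1 was called higher in CHLA 05 (EGLN3), beside 10.1% of all genes. The same line had 1 called lower (NDUFA4L2, at the low level given above), beside 4.42%.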
